A study of Mus musculus with 12 samples.

Results

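The genes for the proteins of the cytosolic ribosome were described in mouse liver samples. They were chosen by symbol (Rpl or Rps followed by a number, with an optional a or x, Rplp followed by a digit, or Rpsa), with no use of their values. The table of 25919 rows holds 73 of them, 45 of the large and 28 of the small subunit. CD40 day 2 (4 libraries) was compared with Kupffer cells of day 0 (2 libraries). All samples came from the liver of C57BL/6 mice, 7 weeks old, with no transgene or deletion given in the labels. The study also holds Kupffer cells of day 7 and a day 2 group labelled Ly6C CD40 neg, 12 samples in all, whose 6 columns were not analysed here by gene. Poly(A) RNA was sequenced from its 3′ end with sample barcodes and molecular identifiers. The labels give neither the event from which days are counted, nor a treatment, nor a sorting gate, nor whether libraries are separate animals, so a p-value reflects how much these libraries vary, some of which may be technical. The column names carry no replicate number, and the libraries of a group are called a to d in table order, as names only.

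The cytosolic ribosome is built from ribosomal RNA and about as many different proteins as there are genes here, nearly all of them needed in equal number. The small subunit reads the mRNA, and the large subunit joins amino acids and lets the growing chain out through a tunnel. Most mRNAs of ribosomal proteins begin with a cytosine and a run of pyrimidines, the 5′ terminal oligopyrimidine (TOP) motif, through which mTORC1 and the RNA-binding protein Larp1 control their translation. Each ribosomal protein gene has left many processed copies (pseudogenes) in mammalian genomes, and a short read from the 3′ end may match several of them.

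To show this motif, 15 bases before and 15 bases from the RefSeq transcript start on (GRCm38.p6) are printed, with the TOP in capitals. The genes printed come from both subunits, are described below, and all have a TOP. By the same count Rplp0, Rpl11, Rps19, Rps3 and Rpsa, also described below, had none within 5 bases of an annotated start. This does not show that their mRNAs lack a TOP, since the annotated start may not be the start used. Rps9 had the highest fold change of the small subunit tested, Rpl13a and Rps26 were among the highest of their subunits, Rps27 was the only gene of the family called lower, and Rps6 was too low to test.
Rps9, chr7:3704026-3704055, plus strand: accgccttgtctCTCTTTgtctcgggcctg
Rpl13a, chr7:45128731-45128760, minus strand: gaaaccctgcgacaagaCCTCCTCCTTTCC
Rps26, chr10:128626492-128626521, minus strand: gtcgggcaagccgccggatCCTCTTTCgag
Rps27, chr3:90213634-90213663, minus strand: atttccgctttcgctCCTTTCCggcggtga
Rps6, chr4:86857353-86857382, minus strand: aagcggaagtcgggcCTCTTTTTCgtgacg
A TOP was counted where a C followed by at least 4 C or T began within 5 bases of the start. RefSeq promoters (250 bases before to 50 after the start) were matched for 53 of the 73 genes. A TOP began at 26 of these 53 (49.1%), against 23.5% of the 11205 protein-coding genes of the table with a promoter. The core CCGGAAG, named for the factor GABPA, stood on either strand in 41.5% of the ribosomal protein promoters, against 17% of all. The core ATGGCG, named for YY1, stood in 28.3%, against 15.4%. GGGCGG, the core bound by SP1, stood in 60.4%, against 63.2%, and TATAAA, the TATA box, in 9.43%, against 10.4%. Such matches describe letters in a window around an annotated start, not bound sites or the start used in these cells.

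Total counts were 725683 to 2271228 in the CD40 libraries and 1612435 and 688498 in the Kupffer libraries, where 3 counts stand for 1.37 to 4.24 CPM (counts scaled to TMM-adjusted library totals). Libraries of a group differed by more than sampling noise in every pair (chi-square over its degrees of freedom, 2.90 to 10.1). The groups differed widely: 53.4% of the 9852 genes tested with edgeR's quasi-likelihood test had an adjusted p under 0.05. The labels were checked against cell markers. The Kupffer libraries held Kupffer cell identity genes (14 of 14 listed), which summed to 0.0927% to 0.323% of counts in CD40 and 0.678% to 0.749% in Kupffer libraries. In CD40, 10 of 14 were lower and 1, Nr1h3, was higher. The call of Nr1h3 depended on Kupffer b, without which its log2 fold change was 0.82. Liver sinusoidal endothelial genes summed to 0.0810% to 0.138% in CD40 and 2.80% to 2.90% in Kupffer libraries, with 18 of 18 lower in CD40. Classical monocyte genes summed to 1.66% to 2.24% in CD40 libraries and 0.157% to 0.180% in Kupffer libraries, with 10 of 12 genes higher in CD40. Stellate cell genes summed to 0.00345% to 0.0118% in CD40 and 0.150% to 0.184% in Kupffer libraries (9 of 9 tested lower, Col1a1 at 0 counts in every CD40 library), and hepatocyte genes to 0.0123% to 0.0240% in CD40 and 0.0579% to 0.133% in Kupffer libraries (7 of 9 lower). Neutrophil genes summed to 0.0934% to 0.179% in CD40 and 0.0977% to 0.323% in Kupffer libraries, B cell genes to 0.00135% to 0.00248% in CD40 and 0.00143% to 0.00218% in Kupffer libraries, T and NK cell genes to 0.0212% to 0.0280% in CD40 and 0.0222% to 0.0234% in Kupffer libraries, and erythroid genes to 0.00675% to 0.0746% in CD40 and 0.00697% to 0.0201% in Kupffer libraries. Of the 16 genes of these lists tested, 1 was called, and Cd79a in the CD40 libraries and Ms4a1 and Ighm in the Kupffer libraries were at 0. Kupffer cell, endothelial, stellate and hepatocyte genes were thus mostly lower in CD40, and classical monocyte genes mostly higher, as were the ribosomal protein genes below. The part of these cell types in the results below was not tested. In bulk RNA, fewer cells of a type and less RNA per cell cannot be told apart.

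Both subunits took a larger share of the RNA counts in CD40 day 2 than in Kupffer day 0. Large subunit genes summed to 1.10%, 1.31%, 1.22% and 1.29% of the counts of CD40 libraries a to d, against 0.841% and 0.725% of Kupffer libraries a and b. The CD40 mean was 1.23% ± 0.0968 (SD, n = 4) and the Kupffer mean 0.783% ± 0.0823 (SD, n = 2), a ratio of 1.57. Small subunit genes summed to 1.13%, 1.42%, 1.19% and 1.31% in CD40 libraries, against 0.745% and 0.665% in Kupffer libraries. Their means were 1.26% ± 0.127 (SD, n = 4) in CD40 and 0.705% ± 0.0569 (SD, n = 2) in Kupffer libraries, a ratio of 1.79. Every CD40 library lay above both Kupffer libraries for each subunit. The exact binomial 95% intervals did not overlap either: 1.08% to 1.12% for the lowest CD40 library and 0.827% to 0.856% for the highest Kupffer library for the large subunit, and 1.12% to 1.15% for the lowest CD40 and 0.732% to 0.759% for the highest Kupffer library for the small subunit. These intervals cover counting error only. With 4 against 2 libraries, an exact permutation test cannot give less than 0.067, so no test of these sums is given.

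**Figure D1:**
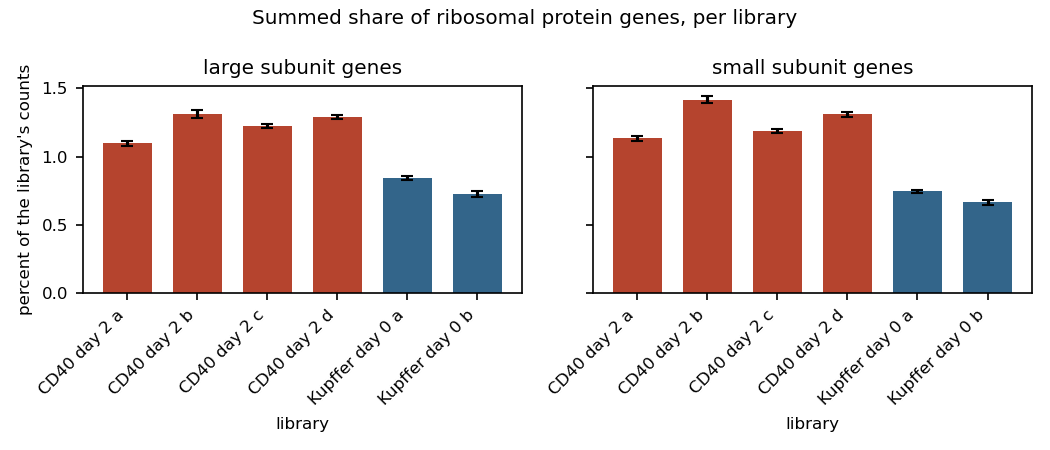
Percent of each library's counts in large subunit genes (left panel) and small subunit genes (right panel), for CD40 day 2 libraries (red) and Kupffer day 0 libraries (blue), with exact binomial 95% intervals. The 4 CD40 bars of the large subunit sit between 1.10% and 1.31%, above the Kupffer bars at 0.841% and 0.725%, and those of the small subunit between 1.13% and 1.42%, above 0.745% and 0.665%.

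Gene by gene, most of the tested family was higher in CD40 day 2. Of the 73 genes, 61 passed the filter on low counts, 39 of the large and 22 of the small subunit. A gene can pass this filter through the group where it is high, so the 12 genes left out count as much in what follows. In the large subunit 30 of 39 were higher in CD40 and 0 lower. In the small subunit 16 of 22 were higher and 1 lower (edgeR's quasi-likelihood test, Benjamini-Hochberg adjusted p under 0.05 over all genes tested). Over all 9852 genes 23.2% were called higher and 30.2% lower. The median log2 fold change (CD40 over Kupffer) was 0.78 in the large subunit (quartiles 0.60 and 1.10) and 0.84 in the small subunit (quartiles 0.59 and 1.18), against -0.10 over all genes tested. In the large subunit, and in each list below with 0 genes lower by the adjusted p, 0 were lower at an unadjusted p under 0.05 or with DESeq2. Fold changes ran from -0.77 to 2.19 in the large and from -1.29 to 1.53 in the small subunit. In 33 large subunit genes all 4 CD40 libraries lay above both Kupffer libraries, and in 1 all lay below. In the small subunit these counts were 18 and 1. Over all genes tested, 29.7% lay wholly above and 36.9% wholly below.

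The shift was shared by the CD40 libraries. Set against the Kupffer mean, the median log2 ratio of the large subunit genes was 0.67, 0.86, 0.85 and 0.86 in CD40 libraries a to d, and 0.11 and -0.11 in the Kupffer libraries. For the small subunit it was 0.65, 1.07, 0.84 and 1.07 in CD40 libraries, and 0.08 and -0.08 in Kupffer libraries. The Kupffer values are equal and opposite by construction, since the reference is their own mean. CD40 library a was the lowest of its group in both subunits, yet above both Kupffer libraries. Without the filter on low counts, 29 of 45 large and 16 of 27 small subunit genes were called higher, beside 2457 of 20783 over all genes. Without Kupffer a the median log2 fold change was 1.01 in the large and 1.05 in the small subunit (-0.05 over all genes). Without Kupffer b these medians were 0.70 and 0.77 (-0.13 over all genes).

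**Figure D2:**
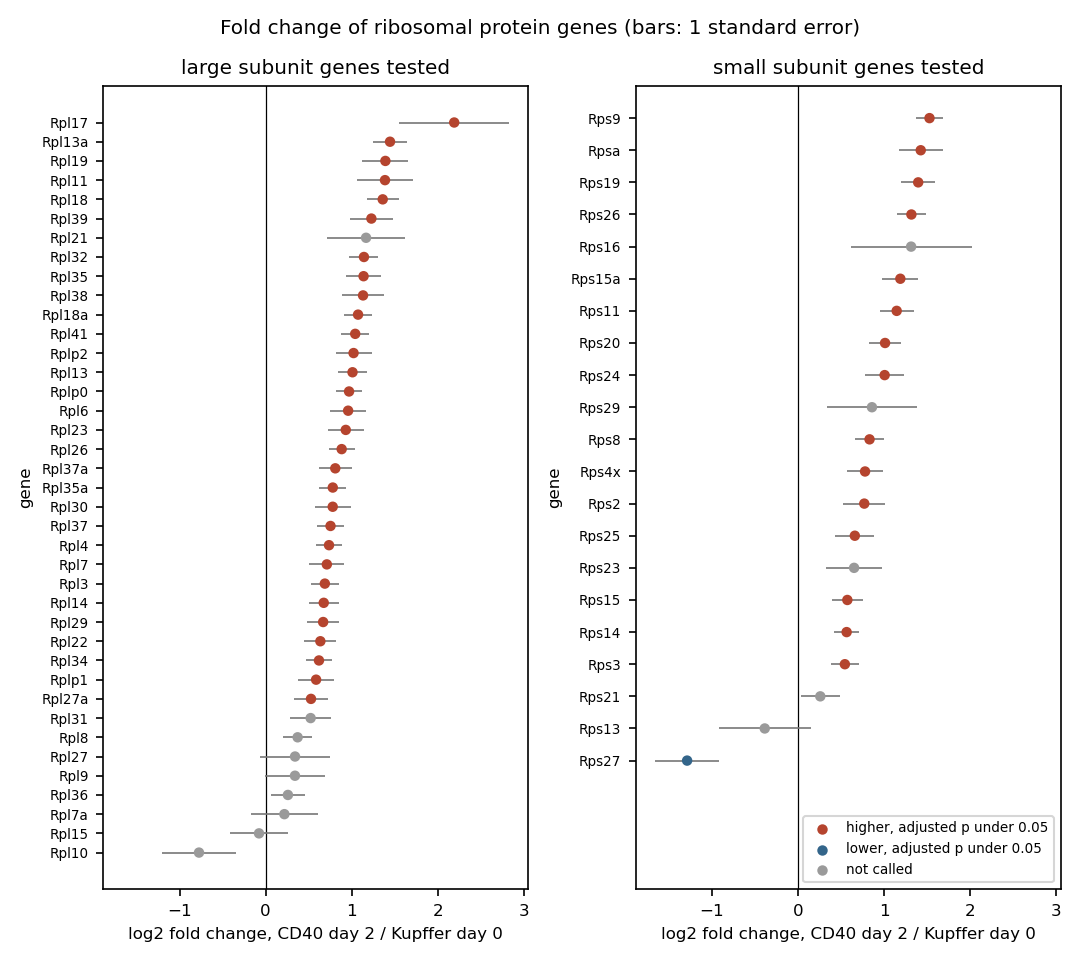
Log2 fold change (CD40 day 2 over Kupffer day 0, horizontal axis) of the tested large subunit genes (left) and small subunit genes (right) that are named here or given by range, with 1 standard error, coloured by call. The genes drawn as called higher (red) sit between 0.53 and 2.19, and Rps27 (blue) at -1.29 is the one gene called lower.

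In the large subunit, the stalk proteins were considered first, since they recruit and activate the elongation factors. Rplp0, which anchors the stalk, had 1550, 1504, 1430 and 1677 CPM in CD40 libraries a to d, against 811 and 760 CPM in Kupffer libraries. The groups did not overlap, and the log2 fold change was 0.97 ± 0.16 (SE; edgeR adjusted p = 0.000563). Its partners Rplp1 and Rplp2 were also higher, at log2 fold changes of 0.59 and 1.02. Rpl12, at the base of the stalk, had 3 to 9 counts in CD40 libraries and 4 and 0 in Kupffer libraries and was not tested.

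The proteins that bind 5S ribosomal RNA, Rpl5 and Rpl11, also bind Mdm2, the inhibitor of p53, when ribosome assembly fails. Rpl11 had 34.6, 59.4, 36.9 and 48.2 CPM in CD40 libraries, against 20.1 and 11.1 CPM in Kupffer libraries, with no overlap and a log2 fold change of 1.39 ± 0.33 (edgeR adjusted p = 0.00557). Rpl5 had 5, 2, 13 and 8 counts in CD40 libraries and 11 and 8 in Kupffer libraries, too few to test.

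Of the 9 proteins that line or surround the exit tunnel, 7 of the 8 tested were higher (87.5%) and 0 lower, with a median log2 fold change of 1.01. The whole large subunit had 76.9% higher and 0% lower, and all genes tested 23.2% and 30.2%. Rpl17 had the highest fold change of the family. Its level was 23.7, 29.7, 9.56 and 13.1 CPM in CD40 libraries, against 2.87 and 5.57 CPM in Kupffer libraries. Libraries a and b were well above c and d, and all 4 lay above the Kupffer pair, where only 5 and 4 counts were seen. The log2 fold change was 2.19 ± 0.64 (edgeR adjusted p = 0.0155), and the call was lost without Kupffer a (1.64, edgeR adjusted p = 0.203). Rpl19 had 46.4, 63.7, 41.4 and 53.6 CPM in CD40 libraries, against 20.7 and 16.7 CPM in Kupffer libraries, at a log2 fold change of 1.39 ± 0.27 (edgeR adjusted p = 0.00163). Rpl39, in the lower part of the tunnel, was higher by 1.23 on the log2 scale, while Rpl31, at the tunnel mouth, was 0.52 ± 0.24 (edgeR adjusted p = 0.0893).

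Rpl13a, which has a role outside the ribosome in silencing inflammatory mRNAs in human monocytes treated with interferon gamma, had 168, 202, 152 and 155 CPM in CD40 libraries, against 66.6 and 55.7 CPM in Kupffer libraries. The groups were far apart, at a log2 fold change of 1.45 ± 0.20 (edgeR adjusted p = 0.00023). Rpl18, a protein of the outer face of the large subunit, had 185, 209, 208 and 245 CPM in CD40 libraries, against 86.1 and 78.0 CPM in Kupffer libraries. Its log2 fold change was 1.36 ± 0.19 (edgeR adjusted p = 0.000205).

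At the other end of the large subunit, Rpl10, which is among the last proteins to join the subunit and helps shape the peptidyl transferase centre, had 2.73, 4.24, 4.55 and 4.17 CPM in CD40 libraries, against 6.89 and 6.96 CPM in Kupffer libraries. All CD40 libraries lay below both Kupffer libraries, but on 3 to 12 counts a library, and the log2 fold change of -0.77 ± 0.43 did not pass (edgeR adjusted p = 0.154). Rpl15, a core protein of the subunit, had 11.8, 15.6, 9.56 and 11.3 CPM in CD40 libraries, against 12.1 and 12.5 CPM in Kupffer libraries, and the groups overlapped. Its log2 fold change was -0.08 ± 0.34 (edgeR adjusted p = 0.869). Rpl36 stood out among the genes with more counts for a small difference: 125, 190, 166 and 179 CPM in CD40 libraries, against 136 and 139 CPM in Kupffer libraries, at 0.26 ± 0.20 (edgeR adjusted p = 0.294). Rpl7a and Rpl9 had log2 fold changes of 0.22 and 0.34 with overlapping groups (edgeR adjusted p = 0.667 and 0.428).

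**Figure D3:**
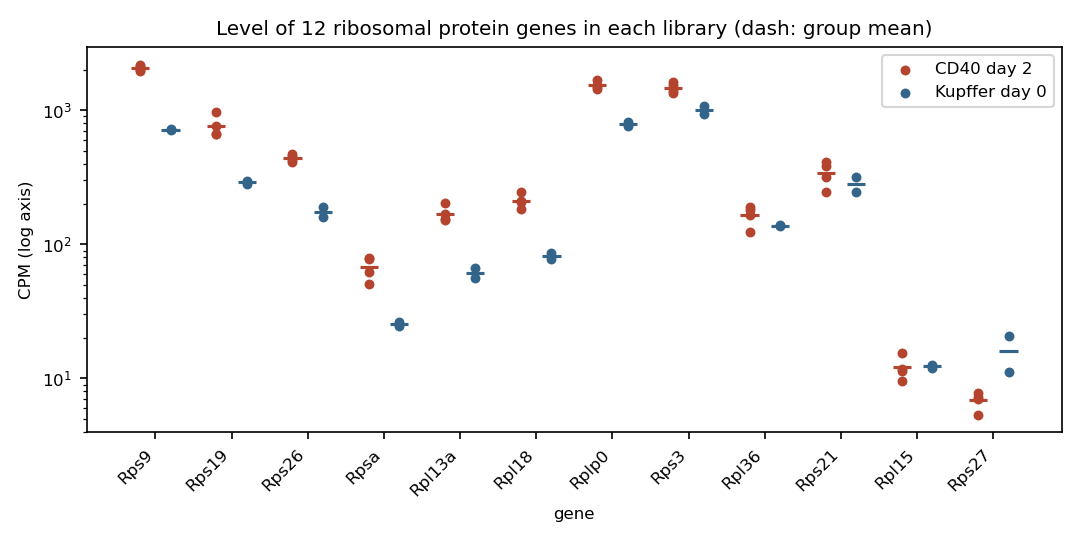
Level in CPM (log axis) of 12 ribosomal protein genes in CD40 day 2 libraries (red, left of each pair) and Kupffer day 0 libraries (blue), with the group mean as a dash. The CD40 points lie above the Kupffer points for Rps9, Rps19, Rps26, Rpsa, Rpl13a, Rpl18, Rplp0 and Rps3, overlap them for Rpl36, Rps21 and Rpl15, and lie below them for Rps27.

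In the small subunit, the head holds the tRNAs and the mRNA entry. Of its proteins, 6 of 8 tested were higher (75%) and 0 lower, with a median log2 fold change of 0.93. The share higher was near that of the whole small subunit, which had 72.7% higher and 4.5% lower. All genes tested had 23.2% higher and 30.2% lower. Rps19, the gene most often mutated in human Diamond-Blackfan anaemia, had 759, 965, 670 and 667 CPM in CD40 libraries, against 296 and 284 CPM in Kupffer libraries. The groups lay far apart, at a log2 fold change of 1.40 ± 0.20 (edgeR adjusted p = 0.000279). Rps3, at the mRNA entry, had a log2 fold change of 0.54 ± 0.16 (edgeR adjusted p = 0.0169), with 1345 to 1617 CPM in CD40 libraries and 1074 and 946 CPM in Kupffer libraries. Its call was lost without Kupffer a (adjusted p = 0.0622), without Kupffer b (0.137), on library totals alone (0.0746) and with the stricter filter (0.0536). Rps16, whose tail reaches the peptidyl site, had 3.64, 9.90, 10.9 and 9.53 CPM in CD40 libraries, against 5.17 and 0 CPM in Kupffer libraries. The groups overlapped and the log2 fold change of 1.31 ± 0.70 did not pass (edgeR adjusted p = 0.141). Without Kupffer a, where the remaining Kupffer library had 0 counts, Rps16 was called (edgeR adjusted p = 0.0439).

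Rps9, a small subunit protein near the mRNA entry, had 1959, 2196, 1988 and 2137 CPM in CD40 libraries, against 714 and 721 CPM in Kupffer libraries. Within each group the libraries were close together, and the log2 fold change was 1.53 ± 0.16 (edgeR adjusted p = 3.44e-05), the highest of the small subunit tested. Rps26, which contacts the mRNA upstream of the start codon, had 422, 456, 410 and 472 CPM in CD40 libraries, against 191 and 160 CPM in Kupffer libraries. Its log2 fold change was 1.32 ± 0.17 (edgeR adjusted p = 0.00013). Rpsa, also known as the laminin receptor precursor, had 51.0, 62.2, 78.3 and 78.6 CPM in CD40 libraries, against 24.7 and 26.5 CPM in Kupffer libraries, at 1.43 ± 0.26 (edgeR adjusted p = 0.00112).

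Rps14, of the small subunit platform, was higher by less, at a log2 fold change of 0.56 ± 0.15 (edgeR adjusted p = 0.00968), and lost the call without Kupffer a (adjusted p = 0.104). Rps21 overlapped between the groups, with 245, 320, 382 and 410 CPM in CD40 libraries, against 320 and 246 CPM in Kupffer libraries (log2 fold change 0.26 ± 0.23, edgeR adjusted p = 0.36). Rps13 had 2.73, 7.07, 9.56 and 16.1 CPM in CD40 libraries, against 11.5 and 13.9 CPM in Kupffer libraries, with wide scatter in CD40 (-0.39 ± 0.53, edgeR adjusted p = 0.569).

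Rps27, a zinc finger protein of the small subunit, was the only gene of the family called lower. It had 7.28, 7.07, 7.74 and 5.36 CPM in CD40 libraries, against 20.7 and 11.1 CPM in Kupffer libraries. All CD40 libraries lay below both Kupffer libraries, on 5 to 17 counts a library in CD40 and 36 and 8 in Kupffer libraries. The log2 fold change was -1.29 ± 0.37 (edgeR adjusted p = 0.0149). The call was lost with DESeq2 (adjusted p = 0.0814) and without Kupffer a (log2 fold change -0.70, edgeR adjusted p = 0.388). Rps6, the substrate of the S6 kinases, had 2, 2, 0 and 3 counts in CD40 libraries and 2 and 1 in Kupffer libraries. Rps27a, made as a fusion with ubiquitin, had 7, 6, 12 and 12 counts in CD40 libraries and 2 and 3 in Kupffer libraries. Rps18 had 0 counts in all 6 libraries. None of these 3 was tested, and Rps7, Rps12, Rpl23a, Rpl24, Rpl28 and Rpl36a were likewise too low, with at most 17 counts in a library.

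These low values stood beside sequence shared with other genes. Windows of 75 bases, the length of the cDNA read, were cut from the 250 bases before and 50 bases after the end of each coding sequence and looked up in all GENCODE M21 transcripts of other genes. In the 12 untested genes a median of 83.9% of windows had an exact match in another gene (range 64.6% to 100%), and in the 61 tested genes 63.2%. The 25 genes with under 50% of windows shared had a median of 4434 counts over the 6 libraries, and the 48 with at least 50% had 270.5. Across the 73 genes, which are not independent replicates, Spearman's rho between the share and the total counts was -0.734, and across the 61 tested genes rho between the share and the log2 fold change was -0.036. Of the 25 less shared genes 22 were higher and 0 lower, with a median log2 fold change of 0.83. Of the 36 tested among the more shared genes 24 were higher and 1 lower, with a median of 0.77. The shares over all genes tested were 23.2% higher and 30.2% lower. How the authors counted a read with several matches is not given in the sources used here, so the values of the more shared genes are uncertain.

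The table also lists 202 copies of these genes by name (symbols with -ps or rt), belonging to 56 of the 73. Rows under other names that share windows were not counted as copies. Examples are Wdr89, with 151 of 226 windows of Rplp2, and Gm10036, with 91 of 226 windows of Rpl11. The copies held 35011 counts over the 6 libraries, 16.1% of the counts of genes and copies together, and 16 genes had more counts in their copies than of their own. Rows of copies made up 0.469% ± 0.0350 of counts in CD40 libraries (SD, n = 4) and 0.296% ± 0.0366 in Kupffer libraries (SD, n = 2). Of 36 copies tested, 24 were higher in CD40 (66.7%) and 0 lower, with a median log2 fold change of 0.85. Over all genes tested 23.2% were higher and 30.2% lower.

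Adding the copies to their gene, an alternative chosen after seeing the data, left 66 genes tested, of which 50 were higher, 0 lower and 16 not called, beside 23.1% higher and 30.2% lower over all genes in that fit. Rps27 shows the change most directly. All of its 226 windows also lie in Rps27rt, a retrotransposed copy on chromosome 9. Rps27rt had 24.6, 36.8, 28.7 and 31.6 CPM in CD40 libraries, against 18.9 and 12.5 CPM in Kupffer libraries, so that it lay higher in CD40 while Rps27 lay lower (log2 fold change 0.86 ± 0.29, edgeR adjusted p = 0.0296). With both copies of Rps27 added, the log2 fold change became 0.17 ± 0.26 (edgeR adjusted p = 0.61). Rps13 had 86 counts of its own and 4347 in its copies. Rps13-ps2, which holds 176 of its 224 windows, had 638, 624, 611 and 613 CPM in CD40 libraries, against 354 and 277 CPM in Kupffer libraries. With copies added, Rps13 was 0.94 ± 0.16 (edgeR adjusted p = 0.000834), against -0.39 alone.

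Rps6 had 10 counts of its own and 459 in its copy, and together they were higher in CD40 by 0.84 ± 0.23 (edgeR adjusted p = 0.0125). Rps16, with 60 counts of its own and 539 in its copy, became 0.90 ± 0.24 (edgeR adjusted p = 0.0111). Rpl17 was 1.49 ± 0.39 (edgeR adjusted p = 0.00902) with its copies, against 2.19 alone. Rpl27a, called alone, was no longer called (edgeR adjusted p = 0.0507), and Rpl10 stayed below 0 at -0.64 ± 0.41 (edgeR adjusted p = 0.219). Rpl36a, with 21 counts of its own and 1895 in its copies, was 0.47 ± 0.20 (edgeR adjusted p = 0.0768).

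**Figure D4:**
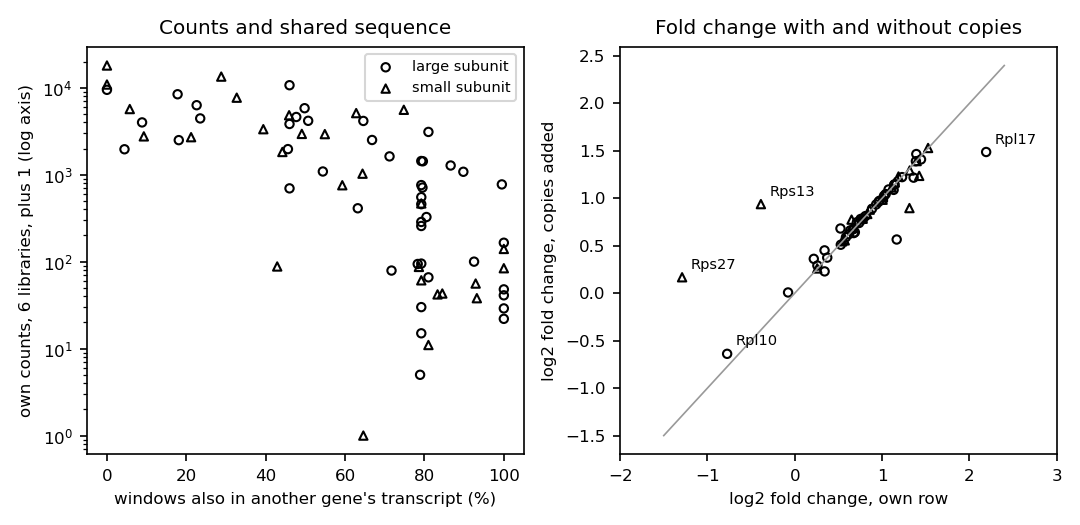
Left, own counts of each of 73 genes over 6 libraries plus 1 (log axis) against the percent of its 75-base windows found in another gene's transcript, with low counts mostly at high percents (Spearman's rho -0.734). Right, log2 fold change (CD40 day 2 over Kupffer day 0) with copies added against that of the gene's own row, where Rps27 moves from -1.29 to 0.17, Rps13 from -0.39 to 0.94 and Rpl17 from 2.19 to 1.49, and the line marks equal values.

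Some ribosomal proteins have symbols outside the rule. Rps3a1, of the small subunit, was higher by 0.64 ± 0.16 (edgeR adjusted p = 0.00805), a call lost without Kupffer a (adjusted p = 0.0526) and without Kupffer b (0.0752). Fau, whose product is cut into Rps30, had 34.6, 32.5, 33.7 and 32.2 CPM in CD40 libraries, against 11.5 and 15.3 CPM in Kupffer libraries (1.36 ± 0.26, edgeR adjusted p = 0.0017). Gnb2l1, the older symbol of Rack1, was too low to test. Of 6 paralogs tested 5 were higher (83.3%) and 0 lower, against 23.2% and 30.2% over all genes tested. Rpl36al was higher by 1.28, Rps27l by 0.73 and Rpl22l1 by 0.71 on the log2 scale, and Rpl7l1 was 0.48 ± 0.19 (edgeR adjusted p = 0.0532). Rpl3l, which striated muscle makes in place of Rpl3, had 13, 4, 30 and 29 counts in CD40 libraries and 1 and 0 in Kupffer libraries. Rpl39l was too low to test. Without Kupffer a, Rpl22l1 lost its call (edgeR adjusted p = 0.0892), and Rps27l lost it by a narrow margin at the threshold.

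Other parts of the translation machinery were counted in the same way. Of 18 tested mRNAs that carry a TOP but encode no ribosomal protein, 9 were higher (50%) and 0 lower (median log2 fold change 0.62). Over all genes tested these shares were 23.2% and 30.2%. Several of them are also counted among the initiation and elongation factors below. Vim, an intermediate filament of mesenchymal and myeloid cells, had 1209, 1149, 2135 and 2376 CPM in CD40 libraries, against 444 and 440 CPM in Kupffer libraries (1.96 ± 0.33, edgeR adjusted p = 0.000727). Pabpc1, the poly(A)-binding protein, was higher by 1.25. Tpt1, a TOP mRNA, was -0.22 ± 0.41 (edgeR adjusted p = 0.686), and Npm1, a nucleolar chaperone, 0.50 ± 0.22 (edgeR adjusted p = 0.0748).

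Of 9 elongation and termination factors tested, 2 were higher (22.2%) and 0 lower, with a median of 0.31. The share higher was near the 23.2% of all genes tested, of which 30.2% were lower. Eef1e1, counted in this list though a subunit of the tRNA synthetase complex, was higher by 1.43. Eef1b2, which reloads Eef1a1, was higher by 0.77. Eef1e1 lost its call without Kupffer a (edgeR adjusted p = 0.0766) and Eef1b2 without Kupffer b (edgeR adjusted p = 0.0965). Eef1a1, which brings tRNA to the ribosome, was 0.31 ± 0.29 (edgeR adjusted p = 0.399), and Eef2, which moves the ribosome along, was 0.40 ± 0.15 (edgeR adjusted p = 0.0526, and under 0.05 with 3 other scalings). Of 34 initiation factors 13 were higher (38.2%) and 4 lower (11.8%), with a median of 0.22. Eif4e2, a cap-binding protein, was higher by 1.54 and the helicase Eif4a1 by 1.29, whereas Eif1, which guards start codon choice, fell by 0.98 and Eif4a2, the helicase's paralog, by 0.89. The call of Eif4a2 was lost without Kupffer a (log2 fold change -0.59, edgeR adjusted p = 0.196).

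Over all genes tested 23.2% were called higher and 30.2% lower. Of 63 tested ribosome biogenesis factors 9 were higher (14.3%) and 5 lower (7.94%), with a median log2 fold change of 0.16. Noc4l, of small subunit assembly, was higher by 1.71 (call lost without Kupffer a, edgeR adjusted p = 0.0717) and Nhp2, of box H/ACA particles, by 1.70, whereas Sbds, which frees new large subunits from Eif6, and Utp11, of the small subunit processome, each fell by 1.07. Of 23 tested subunits and factors of RNA polymerases I and III, which make ribosomal RNA and tRNA, 2 were higher (Polr3c by 1.68, Taf1b by 1.01) and 2 lower (Polr3f by 2.41, Taf1d by 0.64), 8.70% each way, with a median of 0.32. The calls of Taf1b and Taf1d, both of the RNA polymerase I promoter factor, were lost with DESeq2 (adjusted p = 0.0655 and 0.0929), without CD40 c and without either Kupffer library (edgeR adjusted p 0.0584 to 0.223), and that of Taf1d also without CD40 a (edgeR adjusted p = 0.0518). Of 27 genes of mTORC1 and Myc control 9 were higher (33.3%) and 7 lower (25.9%), shares near those of all genes, with a median of -0.26. Mxd1, which opposes Myc, was higher by 2.21 and the kinase Rps6ka1 by 2.10, whereas Mxd4, of the same family as Mxd1, fell by 3.20 and Sesn1, an inhibitor of mTORC1, by 1.99. Myc, a transcription factor that drives ribosome production, had 41.0, 48.1, 18.7 and 26.8 CPM in CD40 libraries, against 27.0 and 33.4 CPM in Kupffer libraries, and the groups overlapped (0.10 ± 0.38, edgeR adjusted p = 0.839). Larp1, the TOP-binding repressor, had 19.1 to 30.5 CPM in CD40 libraries, against 10.3 and 15.3 CPM in Kupffer libraries (1.04 ± 0.33, edgeR adjusted p = 0.0221). Its call was lost with DESeq2 (adjusted p = 0.0598), without CD40 c (edgeR adjusted p = 0.0685) and without Kupffer a (edgeR adjusted p = 0.257). Mtor was too low to test.

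**Figure D5:**
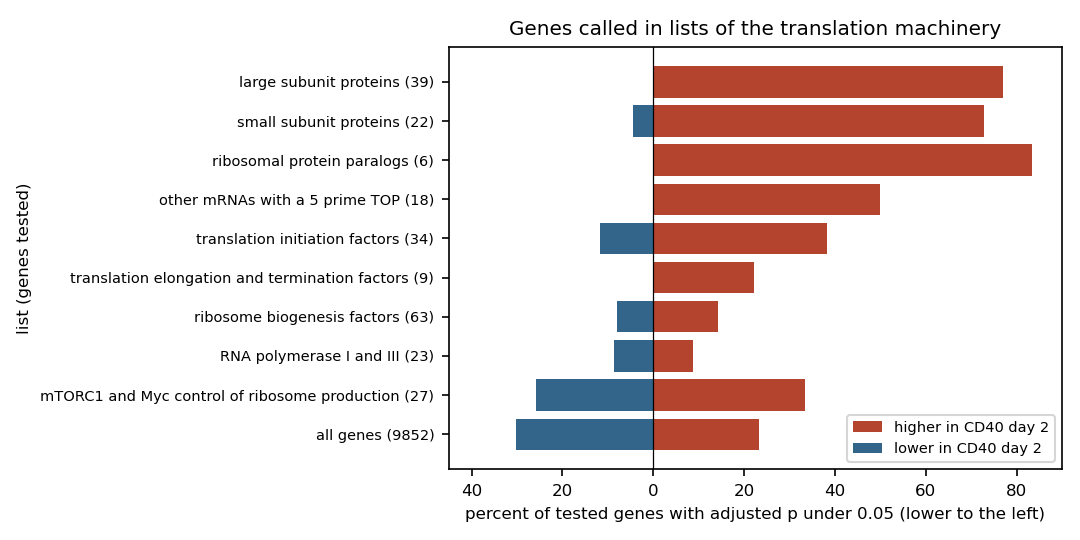
Percent of the tested genes of each list with an adjusted p under 0.05, higher in CD40 day 2 to the right (red) and lower to the left (blue), with the number tested in brackets. Large and small subunit proteins reach 76.9% and 72.7% higher, biogenesis factors 14.3%, and all genes 23.2% higher and 30.2% lower.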

How the data were processed

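The values deposited by the authors are raw, whole-number counts by gene symbol, in columns named by group. The submitters' processing notes name GRCm38.p6 as the build and list DESeq2 1.22.2. The aligner, the counting program and the annotation were not given in the sources, nor whether reads or molecular identifiers were counted. The 4 CD40 day 2 and 2 Kupffer day 0 columns were analysed, and 6 columns were not read by gene, since earlier work on these data could not show that their values follow the gene names. That check used ribosomal protein genes among others. The members and gene lists were chosen with earlier results of these data known. Counts were tested with edgeR 4.0.16 (R 4.3.3; quasi-likelihood test, two-sided, TMM scaling, filterByExpr defaults, Benjamini-Hochberg adjustment over all genes tested), with no block, after tests on simulated data. DESeq2 1.42.0 was an alternative. The biological coefficient of variation was 20.4%. Named genes were the 5 highest and 5 lowest fold changes and the 2 nearest 0 per subunit, genes fixed by name, and of each further list the 2 highest and 2 lowest called. Rpl39, Rpl31, the other stalk genes, and genes named for their copies or low counts were added after their values were seen. Promoters and starts are from RefSeq and transcripts from GENCODE M21. The 73 genes are all rows of the table used here that match the rule; Rpl10a, Rps10 and Rps28 were not analysed here. No column belonged to no sample (0). Some items are withheld and are not reported here by name or drawn, though counts and sums include them.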

Additional observations from a re-analysis of the deposited data

Results flagged for a closer look

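In the CD40 group of 4 libraries, the lowest or highest value was tested for its distance from the others (the gap to the nearest library over the group's range, against Dixon's 95% critical value) in 76 genes, named ribosomal and translation genes and cell markers, of which chance flags about 1 in 20. It was exceeded by 2, and by no ribosomal protein gene among the 76. The rest of the family was not screened. Among the genes not screened, Rpl14 had 594, 771, 571 and 602 CPM in CD40 libraries a to d, and Rps4x 247, 345, 228 and 247 CPM, with library b apart in both. Nr1h3, a nuclear receptor of the Kupffer cell identity list, had 194, 110, 197 and 208 CPM in CD40 libraries a to d (ratio 0.856, library b the lowest), against 101 and 65.5 CPM in Kupffer libraries. Lum, of the stellate cell list, had 1, 0, 0 and 0 counts in CD40 libraries (ratio 1), against 43 and 13 in Kupffer libraries. Any count beside zeros in all other libraries gives this ratio, so the flag of Lum carries no information.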

How the results depend on the processing

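No paired analysis was possible because the columns carry no replicate numbers. Calls stayed at 26 to 32 large and 12 to 19 small subunit genes under RLE, upper quartile, library-total and ribosome-free TMM scaling, DESeq2, both filters and added copies. With library totals alone the median of all genes moved to -0.27, calls over all genes to 1883 higher and 3361 lower (2288 and 2974 with TMM), and the large subunit median to 0.62. With 1 library left out, calls ranged from 21 to 30 in the large and 13 to 17 in the small subunit and from 3206 to 5514 over all genes, and medians from 0.70 to 1.01 and 0.77 to 1.05; the lowest count over all genes and both highest medians came without Kupffer a. Shares then ranged, in the large subunit, from 1.20% to 1.28% in CD40 and 0.725% to 0.841% in Kupffer libraries, and in the small subunit from 1.21% to 1.31% in CD40 and 0.665% to 0.745% in Kupffer libraries. With copies added the shares rose by construction to 1.52% in CD40 and 0.980% in Kupffer libraries (large) and 1.45% in CD40 and 0.804% in Kupffer libraries (small), and Rps13 and Rps27 reversed to 0.94 and 0.17. Of the other values of single genes, 899 kept their call and direction, 31 lost and 15 gained a call. At this depth 3 counts stand for 1.37 to 4.24 CPM, which limits what can be said of the 12 untested genes.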
